A study of Drosophila melanogaster with 9 samples.

Results

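The genes described here encode proteins of the Drosophila immune repertoire: peptidoglycan recognition proteins and Gram-negative binding proteins (PGRP, GNBP), lysozymes, Nimrod receptors, thioester-containing proteins, antimicrobial and immune-induced peptides, and serpins. They were taken by symbol, as every gene with a probe set whose symbol begins with PGRP-, GNBP, Lys and a capital letter, NimA to NimC, Tep, Spn and a number, Dpt, AttA to AttD, CecA to CecC, Drs, or IM and a number. That gave 64 of the 11982 genes that the platform annotation names, each read from the probe set with the highest mean over the 9 arrays. LysRS, the lysyl-tRNA synthetase gene, fits the pattern of symbols but is no lysozyme, so it was counted among the 64 and put in no class. Tep5Psi carries the symbol of a pseudogene.

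Sorted mesodermal cells of embryos at stage 11 to early stage 12, aged at 25 °C, were profiled on Affymetrix Drosophila arrays in 3 groups of 3 arrays. All embryos carried twi-GAL4 and UAS-2EGFP, so that green fluorescent protein marked cells expressing Twist, and the sort took the fluorescent cells. The CHES-1-like null group was homozygous for Df(1)CHES-1-like1, the jumu deficiency group was homozygous for Df(3R)Exel6157, which the labels call a jumu null, with the driver on one copy of the deficiency chromosome and the reporter on the other, and the control group carried neither lesion. These groups are called CHES-1-like mutants, jumu mutants and controls. A deficiency can remove more genes than the one it is named for, and separate collections or sorts are not stated for the replicates, so the p-values cover array-to-array spread that could be technical only.

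In flies, peptidoglycan recognition proteins bind bacterial cell wall fragments and either start the Imd pathway (PGRP-LE, PGRP-LC) or dampen it by cutting the fragments (the amidases PGRP-LB, PGRP-SB1 and the PGRP-SC genes). Circulating proteases and the serpins that block them govern the cleavage of Spätzle, the ligand of Toll, and the activation of prophenoloxidase. Nimrod proteins with their EGF-like repeats bind bacteria or apoptotic cells, and several are hallmarks of plasmatocytes, the macrophages of the fly, which arise from the head mesoderm of the embryo. Antimicrobial peptide genes are known mainly for their induction in fat body and haemocytes after infection, and the embryos here were not infected as far as the labels say.

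The targeted genes were lower than in controls in the arrays labelled with their lesions. CHES-1-like signal was 12.03, 11.97 and 12.02 (log2) in controls and 3.87, 4.32 and 3.92 in CHES-1-like mutants. In jumu mutants it read 11.38, 11.61 and 11.19, a change of −0.61 ± 0.13 (SE, limma adjusted p = 0.00557). For jumu the control arrays read 10.54, 10.46 and 10.57 and the deficiency arrays 8.18, 8.21 and 7.99, so signal remained on this probe set. In CHES-1-like mutants jumu did not pass (0.15 ± 0.07, adjusted p = 0.127). All 8 measured mesoderm markers stood above background in at least 1 group, twi among them at 9.68 ± 0.04 (SD, n = 3) in controls. The 9 measured neural markers and all measured epidermis markers except sha did so too, with control means of 12.10 for elav and 10.43 for grh. Signal above background therefore does not set these cells apart as mesoderm. As a measure of background, chemoreceptor genes (odorant and gustatory, 125 probe sets) reached 5.28 at their 95th percentile on the log2 scale. Within its group, replicate 3 of the CHES-1-like mutants had the lowest correlations (r of 0.9979 and 0.998 across probe sets). On the array control transcripts, the 3′ minus 5′ difference in log2 signal was 1.26 ± 0.03 (SD, n = 3) for actin and 1.35 ± 0.03 for eIF-4a in jumu mutants, against 1.04 ± 0.01 and 1.07 ± 0.07 in controls and 0.94 ± 0.06 and 1.15 ± 0.05 in CHES-1-like mutants. For GAPDH it was 0.34 ± 0.09 in controls, 0.08 ± 0.25 in CHES-1-like mutants and 0.42 ± 0.16 in jumu mutants, which differ by less than these SDs between jumu mutants and controls. The part of RNA quality in the results was not tested.

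Much of the immune repertoire gave signal no higher than background in these cells. The mean over 9 arrays exceeded 5.28 for 37 of the 64 genes, and 26 exceeded it in no group. Background-level genes included 5 of 9 recognition genes, 12 of 27 serpins and 5 of 11 peptide genes, the last being AttD, DptB, Drs, Drsl3 and Drsl6. Of 10 Nimrod genes, only NimC2 stayed below the bound in every group, and of 3 thioester genes only Tep4 stood above it. NimC4, which encodes the apoptotic cell receptor also called Simu, read 13.41, 13.44 and 13.43 in controls. Spn27A, whose serpin restrains prophenoloxidase activation and the dorsoventral Toll protease Easter, had a control mean of 10.20 ± 0.02 (SD, n = 3). Signals of different probe sets depend on the probes and are not compared with each other here. Replicate SDs of the 64 genes ran from 0.01 to 0.29, with a median of 0.08 in controls, 0.10 in CHES-1-like mutants and 0.08 in jumu mutants.

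In CHES-1-like mutants few of these genes moved far, and those that moved most went in opposite directions. PGRP-LE, which encodes an intracellular and extracellular sensor of DAP-type peptidoglycan, dropped to background, whereas LysX, a lysozyme gene, and the serpin gene Spn43Aa rose. In all, 9 genes rose and 12 fell, and 43 did not pass (limma, Benjamini-Hochberg adjusted p under 0.05 over all probe sets). The 32.8% of members past the threshold compare with 35.7% of all 11982 genes, of which 17.1% were called higher and 18.6% lower. Without LysRS 9 rose and 11 fell. In bulk samples such as these, fewer cells of a type and less RNA per cell cannot be told apart. Arrays of the groups did not overlap for 26 members (40.6%), against 50% of all genes. Changes of at least 2-fold past the threshold were seen in 4 of the 64 members, a larger share than the 186 of 11982 genes (1.55%). The median member changed by 0.05 (log2), against 0.02 over all genes, and the counts without replicate 3 of CHES-1-like mutants were 8 higher and 12 lower.

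**Figure D1:**
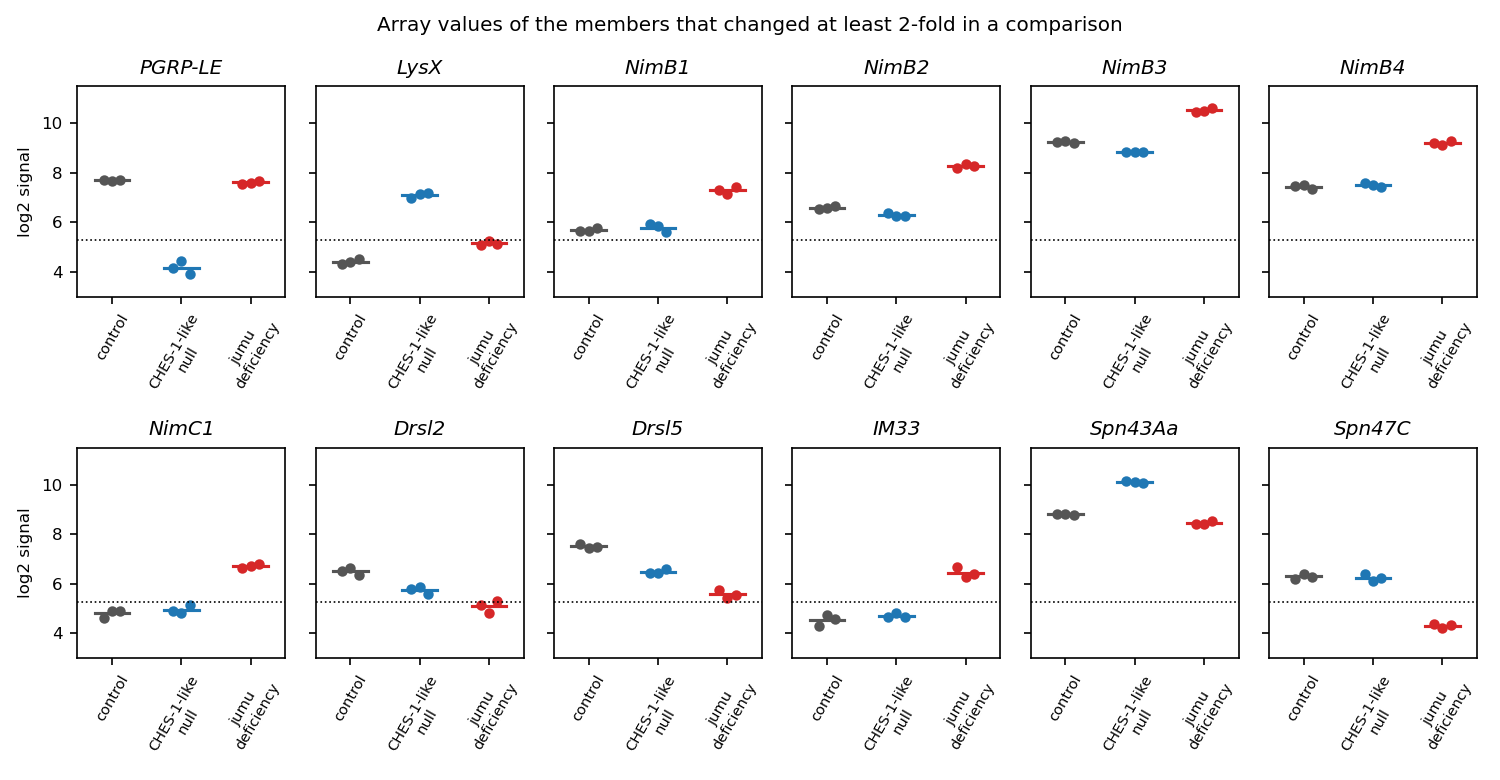
Log2 signal (vertical axes) of the 12 members that changed at least 2-fold past the threshold in a comparison. Points are arrays, bars are group means (n = 3), and the dotted line is the background bound of 5.28. PGRP-LE lies under the bound in CHES-1-like mutants alone and Spn47C in jumu mutants alone, while NimB1 to NimB4 and NimC1 are highest in jumu mutants.

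PGRP-LE read 7.70, 7.68 and 7.69 in controls, 4.16, 4.43 and 3.90 in CHES-1-like mutants and 7.54, 7.60 and 7.68 in jumu mutants. The CHES-1-like mutant arrays were the low ones, all under the background bound, and overlapped neither other group. The change was −3.53 ± 0.11 (SE) in CHES-1-like mutants (limma adjusted p = 8.22e-08), and since the null mean of 4.16 lies at background it understates the loss of signal. In jumu mutants PGRP-LE changed by −0.09 ± 0.11 (adjusted p = 0.616), and was higher in jumu mutants than in CHES-1-like mutants by 3.44 ± 0.11 (adjusted p = 2.9e-08). PGRP-LE lies on the same chromosome as CHES-1-like with 712 measured genes between them. Of the 10 measured genes around it, 5 on each side, 3 were higher, 1 was lower and 6 did not pass in CHES-1-like mutants, none of them by more than the −0.30 ± 0.05 of mRpS30.

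The amidase gene PGRP-SB1 went opposite ways in the mutants. Its control arrays read 6.84, 6.93 and 6.77, its CHES-1-like mutant arrays 6.46, 6.18 and 6.26, and its jumu mutant arrays 7.26, 7.28 and 7.30. The 3 groups did not overlap, with CHES-1-like mutants lowest and jumu mutants highest. PGRP-SB1 fell by 0.54 ± 0.07 (SE) in CHES-1-like mutants (limma adjusted p = 0.000386) and rose by 0.43 ± 0.07 in jumu mutants (adjusted p = 0.00144), a difference between mutants of 0.97 ± 0.07 (adjusted p = 5.73e-06). PGRP-LF, whose protein inhibits Imd signalling, read 5.23, 5.34 and 5.03 in controls, 5.54, 5.65 and 5.45 in CHES-1-like mutants and 5.72, 5.45 and 5.79 in jumu mutants. Every mutant array lay above the controls, and the mutants overlapped each other. It rose by 0.46 ± 0.10 in jumu mutants (adjusted p = 0.00811). In CHES-1-like mutants PGRP-LF was past the threshold at 0.35 ± 0.10 (adjusted p = 0.0321), a call that 7 of 16 alternatives lost, the replicate block among them, with adjusted p up to 0.11.

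The other recognition genes were dim, apart from PGRP-SC2. GNBP3, which encodes a sensor of fungal glucan upstream of Toll, read 4.99, 4.89 and 4.87 in controls, 4.34, 4.51 and 4.57 in jumu mutants and 4.99, 4.86 and 5.06 in CHES-1-like mutants. The jumu mutant arrays were the low ones, at −0.44 ± 0.07 from controls (SE, limma adjusted p = 0.00121), with every group under the background bound. PGRP-LA changed by 0.30 ± 0.08 in jumu mutants (adjusted p = 0.0159), also with all groups under the bound, a call that 3 of 15 alternatives lost (adjusted p up to 0.0563). The amidase gene PGRP-SC2, with control, CHES-1-like null and jumu mutant means of 7.26, 7.28 and 7.28, changed by 0.02 ± 0.05 and 0.02 ± 0.05 in the mutants. PGRP-LB, at 4.06, 4.28 and 4.16 in the same order, did not pass in any comparison, nor did PGRP-SB2 or GNBP2.

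LysX was the lysozyme gene that changed. The 3 control arrays read 4.30, 4.41 and 4.53, under the background bound, the CHES-1-like mutant arrays 6.98, 7.15 and 7.17, and the jumu mutant arrays 5.10, 5.23 and 5.12. The groups did not overlap, and only CHES-1-like mutants stood above the bound. LysX rose by 2.69 ± 0.07 (SE) in CHES-1-like mutants (limma adjusted p = 4.97e-08) and by 0.74 ± 0.07 in jumu mutants (adjusted p = 6.04e-05), and was lower in jumu mutants than in CHES-1-like mutants by −1.95 ± 0.07 (adjusted p = 8.08e-08). Since the control mean lies at background, the rises are understated. LysS and LysP did not pass in any comparison (LysS −0.06 to 0.08 and LysP −0.13 to −0.03 over the 3 comparisons). Lysozyme genes resemble each other in sequence, and cross-hybridisation among them was not tested.

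The gene next to LysX in the annotation shifted too. Aplip1, whose product links kinesin to its cargo, rose by 2.03 ± 0.10 (SE) in CHES-1-like mutants, from a control mean of 3.67 to 5.70 (limma adjusted p = 1.11e-06), and by 0.69 ± 0.10 in jumu mutants (adjusted p = 0.000716). Its jumu mutant mean of 4.37 lay under the background bound, as did its control mean. Farther along, mwh was higher by 5.42 ± 0.08 in jumu mutants and by 0.44 ± 0.08 in CHES-1-like mutants, and mwh overlaps LysP and LysS in the annotation, neither of which passed. Among the 9 measured neighbours of LysX that are not members, 2 rose, 4 fell and 3 did not pass in CHES-1-like mutants. Aplip1, mwh and mRpS30 were singled out after their values were seen.

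Among the Nimrod genes 8 of 10 rose in jumu mutants and none fell (NimA and NimC2 did not pass). Across all 64 genes 20 rose, 9 fell and 35 did not pass, and 45.3% were past the threshold against 38.6% of all genes, with 17.6% of all genes called higher and 21% lower. Arrays did not overlap for 38 members (59.4%), against 54.2% of all genes. At least 2-fold past the threshold changed 9 of the 64 members, a larger share than the 334 of 11982 genes (2.79%). The median member changed by 0.11 (log2), against 0.01 over all genes. Centring each array on its median gave 16 members higher and 9 lower, while the share of higher calls over all probe sets went from 46.1% (2781 higher and 3254 lower) to 31.4% (1820 and 3974).

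**Figure D2:**
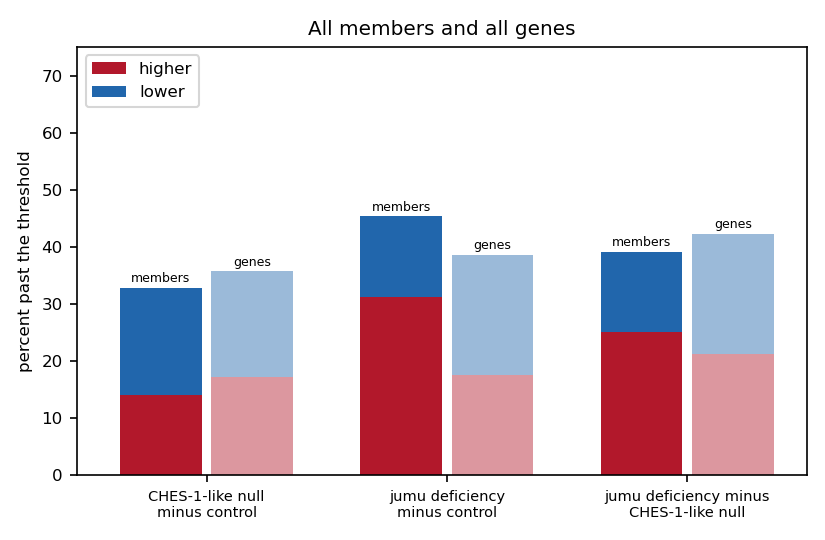
Percent of genes past the threshold (vertical axis), higher in red and lower in blue, for each comparison. Dark bars are the 64 members and pale bars all 11982 genes. In jumu mutants the higher part of the member bar is taller than that of all genes.

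The plasmatocyte phagocytosis receptor gene NimC1 read 4.62, 4.89 and 4.91 in controls, 4.90, 4.84 and 5.14 in CHES-1-like mutants and 6.62, 6.70 and 6.78 in jumu mutants. The jumu mutant arrays were high and apart from both other groups, which overlapped each other under the background bound. NimC1 rose by 1.89 ± 0.10 (SE, limma adjusted p = 7.19e-07), a 3.71-fold difference that is understated because the control mean is at background. The change in CHES-1-like mutants was 0.15 ± 0.10 (adjusted p = 0.3).

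The secreted Nimrod genes NimB1 to NimB5, which follow NimA without an intervening measured gene, rose together in jumu mutants. NimB4, whose secreted protein aids the clearance of apoptotic cells, read 7.46, 7.52 and 7.33 in controls, 7.60, 7.51 and 7.44 in CHES-1-like mutants and 9.21, 9.12 and 9.28 in jumu mutants, a rise of 1.77 ± 0.07 (SE, limma adjusted p = 7.99e-08). NimB2 read 6.55, 6.57 and 6.65 in controls, 6.36, 6.26 and 6.24 in CHES-1-like mutants and 8.19, 8.35 and 8.27 in jumu mutants. In both genes the jumu mutant arrays were the high ones, and for NimB2 the CHES-1-like mutant arrays were also below every control array. NimB2 rose by 1.68 ± 0.06 in jumu mutants (adjusted p = 4.09e-08) and fell by 0.30 ± 0.06 in CHES-1-like mutants (adjusted p = 0.00274).

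NimB3 followed the same order, at 9.25, 9.28 and 9.18 in controls, 8.83, 8.84 and 8.85 in CHES-1-like mutants and 10.46, 10.50 and 10.63 in jumu mutants. It rose by 1.29 ± 0.05 (SE, limma adjusted p = 1.29e-07) in jumu mutants and fell by 0.40 ± 0.05 in CHES-1-like mutants (adjusted p = 0.000354), and the groups did not overlap. NimB1 read 5.64, 5.65 and 5.79 in controls, 5.92, 5.86 and 5.59 in CHES-1-like mutants and 7.30, 7.14 and 7.41 in jumu mutants, where it rose by 1.59 ± 0.10 (adjusted p = 2.11e-06). The CHES-1-like mutant arrays of NimB1 overlapped the controls (0.09 ± 0.10, adjusted p = 0.528). NimB1 and NimB2 overlap in the annotation, and whether their probe sets share signal was not tested. NimB5, known in larvae as a secreted regulator of haemocyte number, rose by 0.55 ± 0.10 (adjusted p = 0.00177).

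**Figure D3:**
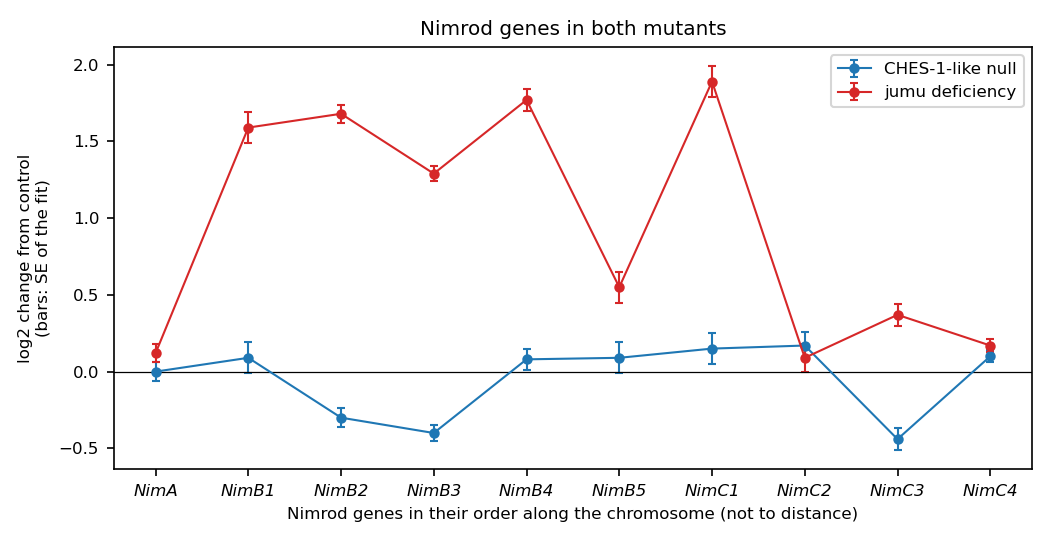
Log2 change from control (vertical axis, bars are the SE of the fit) of the 10 Nimrod genes in their chromosomal order, which is not drawn to distance. In jumu mutants (red) NimB1 to NimB4 and NimC1 lie between 1.29 and 1.89 and NimA, NimC2 and NimC4 near 0, while every CHES-1-like mutant value (blue) lies between −0.44 and 0.17.

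The neighbours at either end of that run moved less. NimA changed by 0.12 ± 0.06 (SE, limma adjusted p = 0.181) in jumu mutants, and its dimmer second probe set by 0.08 ± 0.13 (adjusted p = 0.71). He, a haemocyte gene between NimB5 and NimC1, stayed at background (−0.05 ± 0.09, adjusted p = 0.738). NimC2 changed by 0.09 ± 0.09 (adjusted p = 0.494). NimC3, a phagocytosis receptor gene, read 5.83, 5.83 and 5.89 in controls, 5.51, 5.47 and 5.25 in CHES-1-like mutants and 6.19, 6.20 and 6.26 in jumu mutants, 3 groups without overlap. It rose by 0.37 ± 0.07 in jumu mutants (adjusted p = 0.00235) and fell by 0.44 ± 0.07 in CHES-1-like mutants (adjusted p = 0.00093). NimC4 changed by 0.17 ± 0.04 in jumu mutants (adjusted p = 0.00524), a call lost with median centring (0.0756). Vajk3, separated from NimB1 by NimA alone among measured genes and chosen after its value was seen, rose by 2.02 ± 0.10 in jumu mutants (adjusted p = 4.91e-07).

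The mutants also differed directly over the Nimrod genes, in a contrast whose estimates leave out the control arrays, though its errors pool the spread of all 3 groups. NimB2 was higher in jumu mutants than in CHES-1-like mutants by 1.98 ± 0.06 (SE, limma adjusted p = 1.29e-08), NimC1 by 1.74 ± 0.10 (adjusted p = 1.01e-06) and NimB3 by 1.69 ± 0.05 (adjusted p = 2.35e-08). In total 7 of 10 Nimrod genes were higher and none lower, against 21.2% of all genes called higher and 21.1% lower in that contrast. Over the 64 genes 16 were higher and 9 lower, and 39.1% passed, against 42.3% of all genes. Arrays of the mutants did not overlap for 30 members (46.9%), against 51.7% of all genes. Changes of at least 2-fold past the threshold between the mutants were seen in 10 of the 64 members, a larger share than the 442 of 11982 genes (3.69%).

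Haemocyte markers outside the 64 genes were measured beside the Nimrod genes. In jumu mutants 11 of 19 rose, against 17.6% of all genes called higher. None fell and 8 did not pass, with a median change of 0.22 (log2). In CHES-1-like mutants 9 rose, against 17.1% of all genes, 4 fell and 6 did not pass, with a median of 0.18. The summed signal of the 19 markers was 16.28 to 16.32 on the log2 scale in the jumu mutant arrays, 15.93 to 15.95 in controls and 16.00 to 16.03 in CHES-1-like mutants. Collagen genes were among those that rose in jumu mutants, with vkg up by 1.58 ± 0.05 (SE) and Col4a1 by 1.17 ± 0.04. The matrix glycoprotein gene Glt rose there by 1.52 ± 0.06, the apoptotic cell receptor gene crq by 0.69 ± 0.09 and the scavenger receptor gene Sr-CI by 0.66 ± 0.05. By contrast srp, the GATA factor gene of the haemocyte lineage, changed by 0.06 ± 0.06 (limma adjusted p = 0.484), the peroxidasin gene Pxn by −0.08 ± 0.04 (adjusted p = 0.167) and the hemolectin gene Hml by 0.22 ± 0.10 (adjusted p = 0.124), and eater and He were at background in every group. The part of haemocyte number in the rise of the Nimrod genes was not tested.

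**Figure D4:**
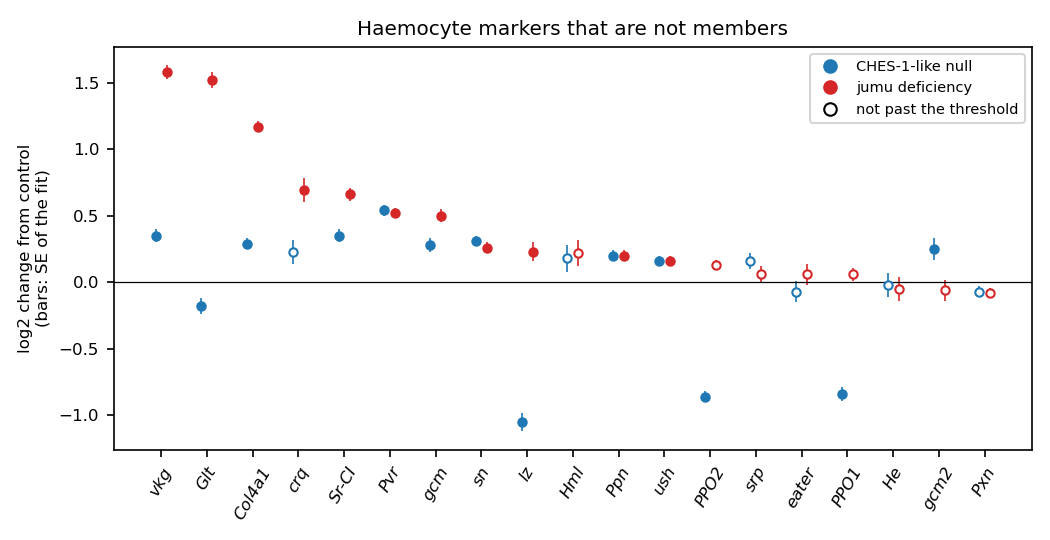
Log2 change from control (vertical axis, bars are the SE of the fit) of 19 haemocyte markers that are not members, in order of their change in jumu mutants. Filled points passed the threshold. In jumu mutants (red) vkg, Glt and Col4a1 rose by more than 1, whereas in CHES-1-like mutants (blue) the crystal cell genes lz, PPO2 and PPO1 lie lowest.

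Among the thioester genes, Tep4, which encodes a secreted opsonin-like protein, was slightly lower in both mutants. It fell by 0.18 ± 0.04 (SE, limma adjusted p = 0.00737) in jumu mutants, from 10.49 ± 0.02 (SD, n = 3) to 10.31 ± 0.02. In CHES-1-like mutants the change was −0.13 ± 0.04 (adjusted p = 0.0367), and 9 of 16 alternatives lost that call, with adjusted p up to 0.113. Outside these classes LysRS, at a control mean of 10.46, fell by 0.18 ± 0.04 in CHES-1-like mutants (adjusted p = 0.0112). Tep3 and Tep5Psi stayed under the background bound in every group and did not pass.

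The peptide genes with detectable signal split by gene. Drsl5 and Drsl2, drosomycin-like genes of one cluster, fell in both mutants, and IM33, an immune-induced molecule gene, rose in jumu mutants. The control arrays of Drsl5 read 7.60, 7.46 and 7.48, those of CHES-1-like mutants 6.42, 6.44 and 6.59 and those of jumu mutants 5.74, 5.44 and 5.54. These 3 groups did not overlap, and jumu mutants were lowest. Drsl5 fell by 1.03 ± 0.08 (SE, limma adjusted p = 1.61e-05) in CHES-1-like mutants and by 1.94 ± 0.08 (adjusted p = 1.74e-07) in jumu mutants, and the mutants differed by −0.91 ± 0.08 (adjusted p = 2.04e-05).

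Drsl2 read 6.51, 6.63 and 6.37 in controls, 5.81, 5.89 and 5.57 in CHES-1-like mutants and 5.15, 4.82 and 5.32 in jumu mutants. It showed the same order without overlap, falling by 0.75 ± 0.13 (SE, limma adjusted p = 0.00204) and by 1.41 ± 0.13 (adjusted p = 3.64e-05), with the jumu mutant mean of 5.10 at background. The genes between them, Drsl3 and Drsl4, did not pass, with Drsl4 at 0.12 ± 0.09 in jumu mutants and −0.06 ± 0.09 in CHES-1-like mutants. Both comparisons share the control arrays.

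IM33 read 4.30, 4.73 and 4.58 in controls, 4.67, 4.81 and 4.68 in CHES-1-like mutants and 6.67, 6.26 and 6.39 in jumu mutants. Only the jumu mutant arrays stood above the background bound. The rise was 1.90 ± 0.12 (SE, limma adjusted p = 2.93e-06), understated for the same reason as that of NimC1, and CHES-1-like mutants changed by 0.18 ± 0.12 (adjusted p = 0.322). The known infection-induced genes of the set, Drs, DptB, AttD and CecB, ranged from −0.06 to 0.28 in both mutants. Of these Drs passed in CHES-1-like mutants at 0.28 ± 0.08 (adjusted p = 0.0363) and AttD in jumu mutants at 0.20 ± 0.06 (adjusted p = 0.0391), both with all groups under the background bound and both lost under some alternatives (adjusted p up to 0.12 and 0.123).

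In CHES-1-like mutants 6 of 27 rose and 3 fell, in jumu mutants 6 rose and 5 fell, and between the mutants 6 were higher and 5 lower in jumu mutants. The 33.3%, 40.7% and 40.7% of serpins past the threshold lie near the 35.7%, 38.6% and 42.3% of all genes. Median changes of the class were 0.05, 0.07 and 0.04.

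Spn43Aa read 8.81, 8.82 and 8.79 in controls, 10.14, 10.12 and 10.07 in CHES-1-like mutants and 8.42, 8.40 and 8.53 in jumu mutants. Its groups did not overlap, with CHES-1-like mutants highest. It rose by 1.30 ± 0.05 (SE, limma adjusted p = 1.65e-07) in CHES-1-like mutants and fell by 0.36 ± 0.05 (adjusted p = 0.000264) in jumu mutants, and the mutants differed by −1.66 ± 0.05 (adjusted p = 1.11e-08). Spn43Ab, the next serpin gene of the cluster, changed by −0.16 ± 0.05 in CHES-1-like mutants (adjusted p = 0.0389, a call that 7 of 16 alternatives lost, with adjusted p up to 0.177), and Spn43Ad by 0.19 ± 0.11 (adjusted p = 0.254). CG12828 overlaps Spn43Aa in the annotation and changed by −0.01 ± 0.05.

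Spn47C was the serpin gene that fell in jumu mutants by most. It read 6.20, 6.41 and 6.28 in controls, 6.39, 6.11 and 6.23 in CHES-1-like mutants and 4.39, 4.22 and 4.34 in jumu mutants. Control and CHES-1-like mutant arrays overlapped, and the jumu mutant arrays were low, under the background bound. The change was −1.98 ± 0.08 (SE, limma adjusted p = 1.55e-07) in jumu mutants and −0.05 ± 0.08 (adjusted p = 0.711) in CHES-1-like mutants. Of its 10 measured neighbours 1 was higher, 1 lower and 8 did not pass in jumu mutants.

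Smaller serpin changes ran in both directions. Spn100A read 5.49, 5.48 and 5.52 in controls, 6.08, 6.21 and 5.92 in CHES-1-like mutants and 5.78, 5.73 and 5.69 in jumu mutants, 3 groups without overlap. Spn88Ea read 7.63, 7.55 and 7.55 in controls, 8.17, 8.23 and 7.91 in CHES-1-like mutants and 7.70, 7.69 and 7.86 in jumu mutants, again with the CHES-1-like mutants highest. Spn42De read 6.24, 6.10 and 6.10, then 6.58, 6.76 and 6.43, then 6.14, 5.90 and 6.03, and its jumu mutant arrays overlapped the controls. Spn27A rose by 0.32 ± 0.04 in each mutant (SE, limma adjusted p = 0.000403 in CHES-1-like mutants and 0.000406 in jumu mutants). Spn100A rose by 0.57 ± 0.07 and Spn88Ea, a negative regulator of Toll signalling in adults, by 0.53 ± 0.08 in CHES-1-like mutants (adjusted p = 0.000175 and 0.00113), and Spn42De rose by 0.45 ± 0.09 (adjusted p = 0.00451) while the other measured Spn42D genes, Spn42Da, Spn42Db, Spn42Dc and Spn42Dd, did not pass at their brightest probe set. A dimmer probe set of Spn42Da was past the threshold at 0.27 ± 0.07 (adjusted p = 0.0202), against 0.13 ± 0.06 at the brighter one.

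In jumu mutants Spn77Ba, whose serpin keeps melanization of the trachea in check, rose by 0.63 ± 0.11 (SE, limma adjusted p = 0.00201) and Spn28Dc by 0.44 ± 0.06 (adjusted p = 0.000481), the latter under the background bound in all groups. Spn77Bc read 6.19, 6.05 and 6.22 in controls, 5.78, 5.65 and 5.68 in CHES-1-like mutants and 5.84, 6.04 and 5.97 in jumu mutants. All mutant arrays lay under the controls, those of CHES-1-like mutants lowest. It fell by 0.45 ± 0.07 in CHES-1-like mutants (adjusted p = 0.000773). In jumu mutants Spn77Bc was past the threshold at −0.20 ± 0.07 (adjusted p = 0.0473), a call that 10 of 16 alternatives lost, with adjusted p up to 0.157. Likewise Spn100A, at 0.23 ± 0.07 (adjusted p = 0.0242), lost its call in jumu mutants under 7 of 16 alternatives (adjusted p up to 0.123). Spn28Db, under the background bound in every group, did not pass in any comparison. Spn85F, with 41 measured genes between it and jumu the serpin gene nearest to the targeted locus, was at background in all groups (−0.16 ± 0.10 in jumu mutants).

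**Figure D5:**
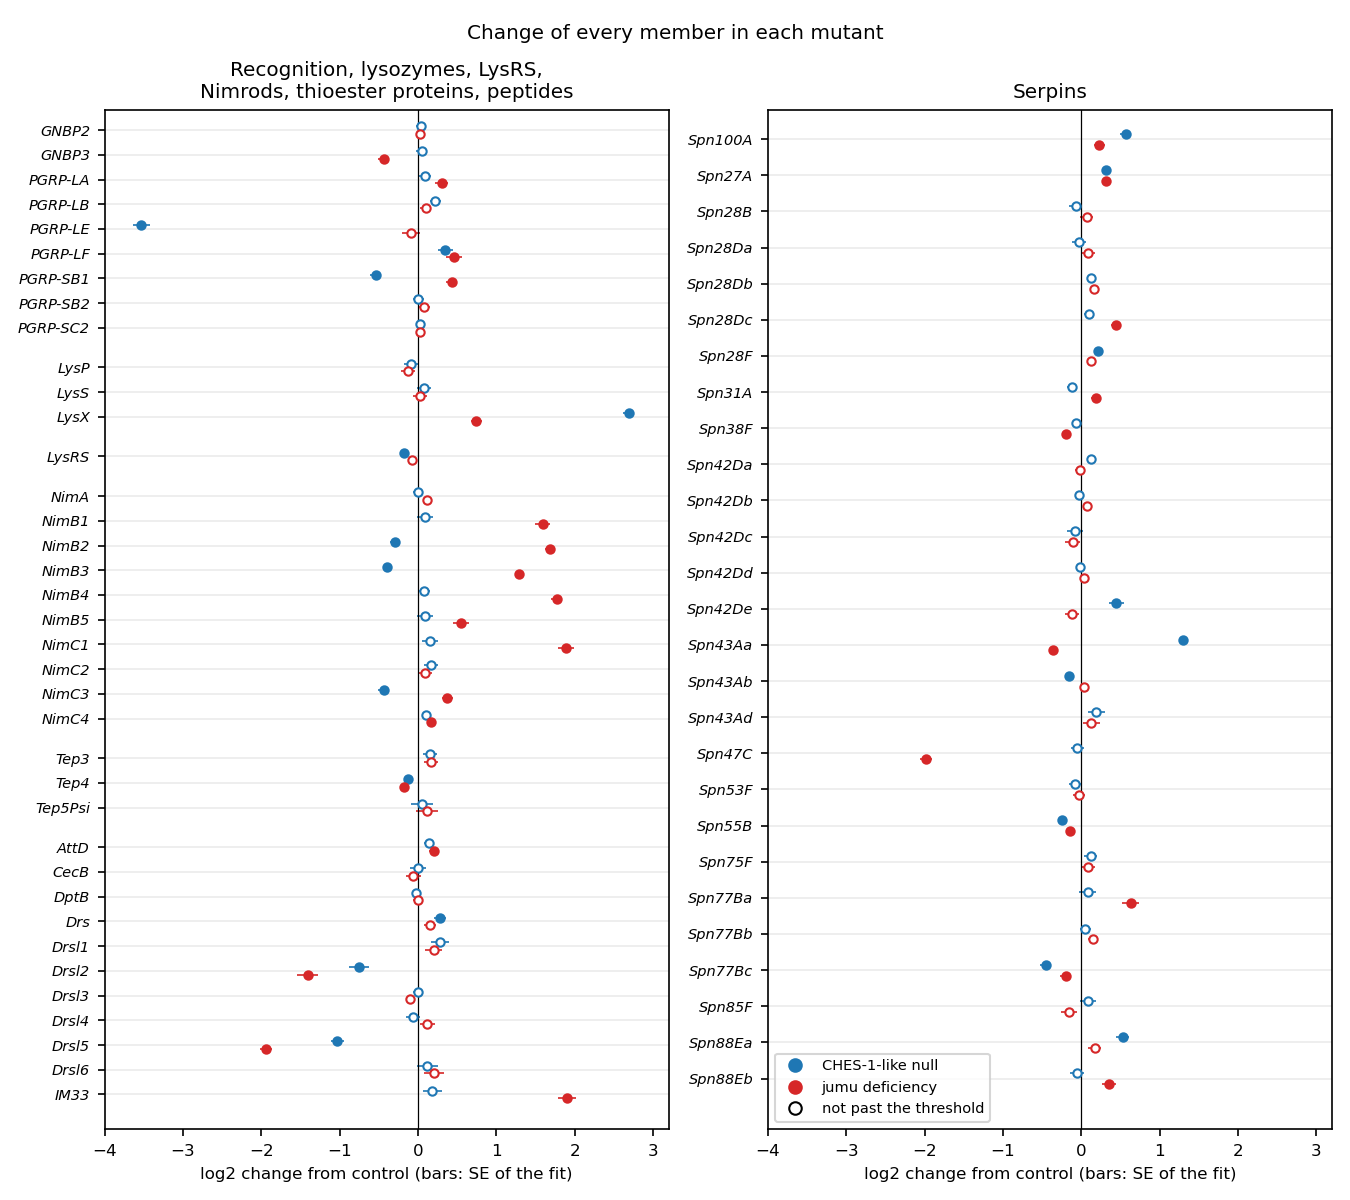
Log2 change from control (horizontal axes, bars are the SE of the fit) of all 64 members in CHES-1-like mutants (blue) and jumu mutants (red). Filled points passed the threshold. Most members lie close to 0 in both mutants, PGRP-LE at −3.53 and LysX at 2.69 stand apart in CHES-1-like mutants, and NimB1 to NimB4, NimC1, IM33, Spn47C, Drsl5 and Drsl2 changed by more than 1 in jumu mutants.

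The pathways these proteins act in were read from lists of genes outside the set. Beside the counts of this and the later lists, 17.1% of all genes were called higher and 18.6% lower in CHES-1-like mutants (35.7% in all). In jumu mutants 17.6% of all genes were called higher and 21% lower (38.6% in all). In the Toll pathway list 12 of 23 measured genes rose and 2 fell in CHES-1-like mutants, with a median change of 0.17. In jumu mutants 7 rose and 4 fell, with a median of 0.01. The gene of the Toll ligand, spz, read 6.64, 6.67 and 6.57 in controls and 7.98, 8.04 and 7.97 in jumu mutants, a rise of 1.37 ± 0.07 (SE, limma adjusted p = 6.91e-07), against 0.23 ± 0.07 in CHES-1-like mutants (adjusted p = 0.0366). SPE, the protease that cuts the ligand, rose by 1.27 ± 0.09 in CHES-1-like mutants (adjusted p = 8.12e-06) and by 0.57 ± 0.09 in jumu mutants (adjusted p = 0.00105). The upstream protease gene grass fell by 0.80 ± 0.06 and by 0.82 ± 0.06 in the same order.

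In CHES-1-like mutants, markers of the epidermis moved in the same arrays as LysX, Spn43Aa and the Toll list. Of 11 epidermis markers 10 rose and none fell, against 17.1% of all genes called higher and 18.6% lower. Only sha was at background in every group. The summed signal of the epidermis markers was 13.66 to 13.72 (log2) in CHES-1-like mutants, 13.03 to 13.07 in controls and 12.77 to 12.79 in jumu mutants. Endoderm and gut markers rose in 5 of 8 cases with none lower (summed signal 14.24 to 14.27, against 14.03 to 14.04 in controls), and fat body markers rose in 1 of 8 and fell in 3 (12.99 to 13.09, against 13.02 to 13.10). Dissociation stress genes rose in 3 of 8 cases with none lower in CHES-1-like mutants, and 2 rose and 3 fell in jumu mutants. Mesoderm markers, none at background, were higher in 1 of 8 cases and lower in 3 in CHES-1-like mutants (summed signal 13.91 to 13.93, against 14.14 to 14.18 in controls). In jumu mutants, where the Nimrod genes and IM33 were higher, 6 mesoderm markers rose and 2 fell. Their summed signal there, 14.08 to 14.10, was nevertheless below that of controls. The 2 that fell were sna (−0.79 ± 0.04, SE) and lmd (−0.29 ± 0.04), the marker of highest signal. Fat body markers in jumu mutants summed to 13.26 to 13.38. Of the 8, apolpp alone was called higher, by 0.94 ± 0.05 (SE, limma adjusted p = 5.1e-07), and none was lower. The markers srp and svp did not pass (0.06 ± 0.06 and −0.01 ± 0.09). Lsp2, Fbp1, Fbp2, Yp1 and AkhR were at background in every group. Endoderm and gut markers summed to 14.15 to 14.19 there, with 2 of 8 higher and 2 lower. What part these had in the immune gene changes was not tested.

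The Imd list had 6 of 17 genes called in CHES-1-like mutants, 3 higher and 3 lower, against 35.7% of all genes. It had 10 called in jumu mutants, 3 higher and 7 lower, against 38.6% of all genes. Its caspase gene Dredd rose by 0.44 ± 0.04 (SE, limma adjusted p = 2.49e-05) and by 0.68 ± 0.04 (adjusted p = 1.09e-06) in that order, the ubiquitin-conjugating gene Uev1A by 0.28 ± 0.04 and by 0.38 ± 0.04, and the deubiquitinase gene CYLD fell by 0.44 ± 0.05 in jumu mutants (adjusted p = 0.000197). Effector genes outside the set were dim: 13 of 16 stayed under the background bound in every group, and none passed in CHES-1-like mutants. In jumu mutants TotF rose by 0.71 ± 0.06 and BomS5 by 0.53 ± 0.07, the latter under the background bound in every group.

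Of 14 phagocytosis and scavenger receptor genes 8 were higher and 2 lower in jumu mutants, with a median change of 0.38. This list shares crq, Sr-CI, eater and He with the haemocyte markers, so the lists are not independent. In CHES-1-like mutants 3 were higher and none lower. Signal of 6 of the 14 stayed under the background bound in every group. Among these were ninaD and Sr-CIII, called higher in jumu mutants, and Sr-CIV, called lower there. Dscam1, drpr and Sr-CI rose by 0.51 ± 0.04, 0.37 ± 0.04 and 0.66 ± 0.05 (SE) in jumu mutants. In the melanisation list 1 of 11 rose and 3 fell in CHES-1-like mutants, with the crystal cell prophenoloxidase genes PPO2 and PPO1 lower by −0.86 ± 0.04 and −0.84 ± 0.05, and 2 rose and 1 fell in jumu mutants, where Pu, of pteridine synthesis, rose by 0.98 ± 0.10 (limma adjusted p = 6.08e-05). Of 8 JAK-STAT genes 4 were higher and 1 lower in CHES-1-like mutants, among them the ligand gene upd1 at 0.69 ± 0.07 and the phosphatase gene Ptp61F at 0.49 ± 0.05, and rose in 2 and fell in 3 in jumu mutants, where the receptor gene dome rose by 0.35 ± 0.04.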

How the data were processed

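Values were deposited as log2 signal, 1 per probe set and array, with array medians of 5.42 to 5.51. Per the submitters' processing notes affy was used, with no version given; how the authors corrected, normalized and summarised the probes: not given in the sources used here. Signal flattens near background, so changes of dim genes are understated, and only 3 arrays a group limit precision.

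The table held 18952 probe sets, less 183 control sets. Platform annotation gave 1 gene for 13647 probe sets, several for 402 and listed none for 4720, and 13544 symbols were brought up to date by gene identifier in RefSeq's fly annotation, used for names and gene order alone. All 18769 probe sets were fitted over 9 arrays with limma 3.58.1 in R 4.3.3 (lmFit, eBayes on group means), Benjamini-Hochberg adjustment over all of them and a threshold of 0.05; the fit was tested on simulated data. Sets shared with another gene (3 for members) were not used.

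Array values are given for up to 6 members a direction, by size of change among those called, in each comparison and for members above background that differed at least 2-fold between mutants; the brightest and dimmest member of each class are also named, and 3 genes of smallest p come from each pathway list. Genes named beyond that rule (other members, list genes, neighbours) were chosen after their values were seen. Members and lists were chosen with earlier results of these data known. Lists covered the Toll, Imd and JAK-STAT pathways, other effectors, melanisation, phagocytosis receptors, and markers of mesoderm, haemocytes, fat body, epidermis, nervous system, gut and dissociation stress. Some genes belong to several lists, namely srp, crq, Sr-CI, eater, He, PPO1, PPO2 and Hayan. Of 9 neural markers 4 rose and 0 fell in CHES-1-like mutants, and 1 rose and 6 fell in jumu mutants. Alternatives were quantile normalization, median centring, leaving out the dimmest 40% of probe sets, a replicate block, fitting 2 groups at a time, a trended and robust variance prior, averaging the probe sets of a gene, platform symbols, a 1.5-fold minimum and leaving out each array. Their application to remaining members, pathway lists and targeted genes, and counts without LysRS, were added after seeing the data.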

Additional observations from a re-analysis of the deposited data

How the results depend on the processing

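The calls of members were stable under most settings. The 1.5-fold minimum is left out of the counts in the next 2 sentences and of the numbers of alternatives given for single genes. In CHES-1-like mutants 16 of 21, in jumu mutants 20 of 29 and between the mutants 23 of 25 members past the threshold stayed there under every other alternative that could test them, and no member with a call changed direction. The calls of PGRP-LE, LysX, Spn43Aa, Spn47C, IM33, Drsl2, Drsl5, NimB1 to NimB5 and NimC1 were among those that stayed. NimB5, at 1.46-fold in jumu mutants, fell short of the 1.5-fold minimum. A minimum of 1.5-fold left 2 members higher and 3 lower in CHES-1-like mutants, 8 higher and 3 lower in jumu mutants, and 9 higher and 5 lower between the mutants. Leaving out 1 array gave 6 to 10 members higher and 10 to 12 lower in CHES-1-like mutants, 16 to 20 and 6 to 8 in jumu mutants, and 15 to 18 and 9 to 11 between the mutants, and 4493 to 5484, 4952 to 6477 and 5672 to 6367 probe sets called. Symbols of the platform annotation gave 64 members, all 64 of them shared with the current symbols.

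Small pathway lists moved more. In CHES-1-like mutants 3 phagocytosis and scavenger receptor genes were called, and 5 with the variance trend, 5 without the dim probe sets and 3 to 5 when 1 array was left out (5 without replicate 3 of the null). The 4 melanisation calls became 2 to 4 (2 without control replicate 1). In jumu mutants the 10 Imd calls became 6 to 12 (6 without control replicate 1 or replicate 1 of the deficiency), the 3 melanisation calls 1 to 4 (1 without control replicate 1 or 2) and the 5 JAK-STAT calls 1 with quantile normalization and 1 to 5 when 1 array was left out. JAK-STAT calls numbered 1 without control replicate 1, control replicate 2 or replicate 3 of the deficiency, 2 without replicate 1 of the deficiency and 3 without its replicate 2 or replicate 1 of the null. The cause was not tested.

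Same-numbered arrays of different groups deviated from their group means with r of −0.136 to 0.15. Whether replicate numbers pair the arrays cannot be told from these values, since differently numbered arrays were not compared. With the replicate block 8 members were higher and 10 lower in CHES-1-like mutants, 19 and 8 in jumu mutants and 16 and 9 between the mutants. Dim signal limits what can be said of the 26 members at background in every group.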

Other observations

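Around IM33 the neighbouring genes rose in jumu mutants as well. Of the 10 measured genes nearest to it, 5 on each side, 6 were higher and none lower (limma adjusted p under 0.05), against 17.6% of all genes called higher. Among the 6 were CG3513 and CG31777, both at 1.66 (log2), the former from a control mean of 5.14. CG16704, CG16713 and CG31778, also called higher, had means under the background bound in every group. In CHES-1-like mutants 1 of these 10 rose. The neighbours were looked at after the value of IM33 was seen.

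The probe set shared by PGRP-LD and the overlapping gene Pmi, which was left out of the counts because its signal cannot be assigned to either, fell from 7.99 ± 0.02 (SD, n = 3) in controls to 7.61 ± 0.07 in CHES-1-like mutants and 7.65 ± 0.05 in jumu mutants (limma adjusted p = 0.000252 and 0.000452). The probe set shared by the amidase genes PGRP-SC1a and PGRP-SC1b was at 5.93 ± 0.13 in controls and did not pass in any comparison.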
